A study of Homo sapiens with 48 samples.

Results

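The genes of DNA replication and mitosis were followed in 8 human bladder cancer cell lines given CPI-0209, an inhibitor of EZH2. Within the Polycomb complex PRC2, EZH2 carries the enzyme activity that puts methyl groups on histone H3 at silenced genes. The genes were a fixed list of 45 names out of 35535 genes in the count table, 22 that act around S phase and 23 that act in mitosis. All 45 were found by symbol, and all 45 passed the filter on low counts in every line. Each line (639V, HT1197, HT1376, KU1919, SW780, T24, TCCSUP or VMCUB) was kept in its own growth medium with serum. In each line 3 RNA sequencing libraries came from cells given the vehicle DMSO and 3 from cells given 250 nM of CPI-0209 over 4 days, which makes 48 libraries in 16 groups. Each line is a single established culture, and nothing in the labels says that the 3 libraries of a group were separate cultures. The p-values therefore reflect the spread among these libraries, possibly a technical one.

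Cells entering S phase are under the control of the RB and E2F proteins. Cyclin E with its kinase phosphorylates RB, which frees the activating E2F factors to switch on the genes of the replicative helicase, of origin licensing and of deoxynucleotide synthesis. Genes of mitosis peak later, in G2 and M, under the B-MYB and FOXM1 factors, and many of their promoters carry a short element called the CHR. In resting cells the DREAM complex holds both classes down. In bulk RNA of a growing culture the level of either class follows both the share of cells in the phase and the RNA in each of those cells, and the 2 cannot be told apart here.

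Library totals ranged from 26481418 to 50916911 counts with a median of 41665600, and levels below are in CPM, counts scaled to a common library size. At least 7 of 14 epithelial and urothelial markers stood at 1 CPM or more in every group, against at most 4 of 10 leukocyte, 3 of 6 endothelial and 9 of 9 fibroblast markers. KRT8 and KRT18, the keratins of simple epithelia, were never below 118 and 489 CPM, while the epithelial gene EPCAM fell to 0.853 CPM. The T cell gene CD3E was never above 0.533 CPM, but the leukocyte gene PTPRC reached 28.8 CPM. In TCCSUP all 9 fibroblast markers stood at 1 CPM or more in both groups. Their sums per library were 8178 to 12394 CPM there, beside 2252 to 2867 CPM for the epithelial and urothelial list. UPK3A, a uroplakin of the urothelial surface, was at 0 in every library of KU1919 and VMCUB and of DMSO-treated 639V. The balance of long to short transcripts, which RNA quality can shift, set 4 libraries apart. It is the median log2 deviation from the line's mean of genes with transcripts of 5392 bases or more (the longest 25%) minus that of genes with 2335 bases or fewer (the shortest 25%), and it fell below -0.2 in KU1919 CPI-0209 replicate 1 (-0.51), VMCUB DMSO replicate 2 (-0.36), T24 CPI-0209 replicate 3 (-0.25) and HT1376 DMSO replicate 1 (-0.23). Results that rest on these libraries are given with and without them. Below, levels are CPM of single libraries scaled over all 48, and changes are given on the log2 scale as treated over vehicle ± SE, from the fit of each line, whose own scaling differs from the CPM scale by a median of -0.03 to 0.05. A member is called higher or lower where the adjusted p of edgeR's quasi-likelihood test is under 0.05.

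Before treatment the lines already differed in these genes. CCNE1, which encodes cyclin E1 (ENSG00000105173, chromosome 19, 29811898 to 29824308, GRCh38), had the widest range, from 8.72 ± 0.472 CPM in KU1919 to 113 ± 5.42 CPM in HT1197 (SD, n = 3 libraries), a ratio of 12.97. Between these came SW780 at 34.2 CPM, 639V at 26.9, TCCSUP at 21.6, T24 at 14.6, VMCUB at 13.6 and HT1376 at 13.5, and only the libraries of the last 3 overlapped with their neighbours. E2F2, an activating E2F factor (ENSG00000007968, chromosome 1, 23506430 to 23531220), was also highest in HT1197, at 44.6 ± 2.33 CPM, and lowest in VMCUB, at 8.43 ± 0.596 CPM. FOXM1, the mitotic transcription factor, ranged from 73.4 ± 2.24 CPM in HT1376 to 424 ± 4.58 CPM in 639V. PCNA, the sliding clamp of the polymerases, was highest in HT1197 at 631 ± 20.1 CPM and lowest in KU1919 at 154 ± 5.52 CPM. MCM7 ran from 196 ± 6.19 CPM in HT1197 to 878 ± 29.2 CPM in VMCUB. High cyclin E1 and PCNA in HT1197 thus stood beside the lowest MCM7 of the 8 lines.

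The promoters of the members were read from RefSeq (GRCh38.p14), as the 250 bases before each annotated start. The table held 36 of the 45 members, with 24 windows for S phase members and 23 for mitotic members, since some genes have several starts. On either strand, TTTNNCGC, a core of E2F sites, stood in 10 of the 24 S phase windows (41.7%) and in 2 of the 23 mitotic windows (8.70%), against 5.92% of all windows in the table. TTTGAA, the CHR, stood in 1 S phase window (4.17%) and 11 mitotic windows (47.8%), against 13.3% of all. CCAAT, the box bound by NF-Y, stood in 75% of S phase and 82.6% of mitotic windows, against 32% of all. Overlapping matches were each counted, and a match describes letters, not binding. The 5 windows shown are of the genes the comparisons below turn on, with motif matches on either strand in capitals. E2F2 holds 3 matches to TTTNNCGC. RRM1, the large subunit of ribonucleotide reductase, and CCNB2, cyclin B2, each hold a CHR, and CCNB2 has 4 CCAAT boxes. CCNA2, cyclin A2, has 1 CCAAT box, and CCNE1 has no match to any of the 3.
E2F2 (chr1:23531234-23531483, minus strand): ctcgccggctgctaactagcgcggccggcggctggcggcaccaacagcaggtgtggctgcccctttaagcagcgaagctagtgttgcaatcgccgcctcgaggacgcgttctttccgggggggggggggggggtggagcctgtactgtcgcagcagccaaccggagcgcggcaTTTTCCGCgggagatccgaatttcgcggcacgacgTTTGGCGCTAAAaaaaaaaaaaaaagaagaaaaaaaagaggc
CCNE1 (chr19:29811741-29811990, plus strand): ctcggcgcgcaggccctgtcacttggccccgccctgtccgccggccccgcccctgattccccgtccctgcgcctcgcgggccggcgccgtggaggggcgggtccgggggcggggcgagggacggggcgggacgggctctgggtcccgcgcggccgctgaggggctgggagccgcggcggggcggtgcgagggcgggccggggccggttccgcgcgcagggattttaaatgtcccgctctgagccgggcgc
RRM1 (chr11:4094435-4094684, plus strand): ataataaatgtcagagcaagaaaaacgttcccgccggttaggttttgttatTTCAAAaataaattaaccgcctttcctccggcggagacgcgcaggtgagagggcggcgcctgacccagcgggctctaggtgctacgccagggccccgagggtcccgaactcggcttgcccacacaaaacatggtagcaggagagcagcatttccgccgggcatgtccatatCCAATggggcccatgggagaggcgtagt
CCNA2 (chr4:121823884-121824133, minus strand): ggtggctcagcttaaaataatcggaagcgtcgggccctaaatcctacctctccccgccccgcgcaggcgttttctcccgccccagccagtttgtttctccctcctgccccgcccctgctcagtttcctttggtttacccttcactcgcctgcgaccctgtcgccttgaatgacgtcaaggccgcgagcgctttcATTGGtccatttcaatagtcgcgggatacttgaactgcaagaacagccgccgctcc
CCNB2 (chr15:59104896-59105145, plus strand): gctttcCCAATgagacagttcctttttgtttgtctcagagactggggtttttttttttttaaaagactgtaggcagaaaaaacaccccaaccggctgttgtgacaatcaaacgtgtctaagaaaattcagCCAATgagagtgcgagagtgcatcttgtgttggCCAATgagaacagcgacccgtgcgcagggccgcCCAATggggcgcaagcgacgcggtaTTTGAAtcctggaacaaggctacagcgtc

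The number of members called with CPI-0209 varied with the line. In HT1197 and SW780 most members of both classes fell, in TCCSUP 12 of 23 mitotic members fell, and in the other 5 lines at most 14 of the 45 were called. In HT1197 34 members were called lower (18 S phase, 16 mitotic) and 0 higher (0 and 0), where 7.8% of the 15579 genes tested were called lower and 11.8% higher. Neither an unadjusted p under 0.05 nor DESeq2 gave a higher member there. For SW780 33 members were called lower (16 S phase, 17 mitotic) and 2 higher (1 and 1), beside 30.3% of 16897 genes called lower and 30.8% higher. TCCSUP followed: 16 members were called lower (4 S phase, 12 mitotic) and 2 higher (2 and 0), with 23% of 16147 genes lower and 25.7% higher. With library totals as the scale in place of TMM, the members called lower and higher were 28 and 0 in HT1197, 17 and 12 in SW780 and 13 and 3 in TCCSUP. The shares of all genes given here belong to the TMM fits, and none was counted with library totals. With TMM, the share of mitotic members called lower in TCCSUP was above the share of all genes, and the share of S phase members was below it. Of 14 housekeeping genes, 6 were called lower and 2 higher in TCCSUP, with a median of -0.13. The fall there was thus not particular to mitotic members. The counts of members called also follow the spread between libraries: the median SE of a member's log2 change was 0.04 in HT1197, 0.04 in SW780, 0.05 in 639V, 0.05 in TCCSUP, 0.06 in HT1376, 0.08 in VMCUB, 0.09 in KU1919 and 0.10 in T24. Few calls in the lines of wide spread do not show that members there moved less.

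In the remaining lines the called members were few and went both ways. In 639V 5 members were called lower (4 S phase, 1 mitotic) and 9 higher (5 and 4), with 17.1% of 16126 genes lower and 22.1% higher. Of the members in HT1376, 2 were called lower and 5 higher, beside 16% and 23.7% of 16346 genes. VMCUB gave 3 lower, all mitotic, and 3 higher, all of S phase, with 11% and 16.4% of 15474 genes. In KU1919 1 member was called higher and 0 lower by edgeR, beside 9.3% and 2.4% of 16241 genes; 4 were lower at an unadjusted p under 0.05 and 3 with DESeq2. T24 had 0 members called by edgeR in either direction, where 0.93% of 15492 genes were lower and 9.37% higher; at an unadjusted p under 0.05 there were 1 lower and 2 higher, and with DESeq2 2 lower and 0 higher. With library totals the members called lower and higher became 0 and 14 in 639V, 1 and 5 in HT1376 and 0 and 7 in VMCUB. Every call higher in these lines was kept on that scale. Of the calls lower, 0 were kept in 639V, 0 in VMCUB and 1 in HT1376. No share of all genes was counted with library totals, with DESeq2 or at an unadjusted p.

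**Figure D1:**
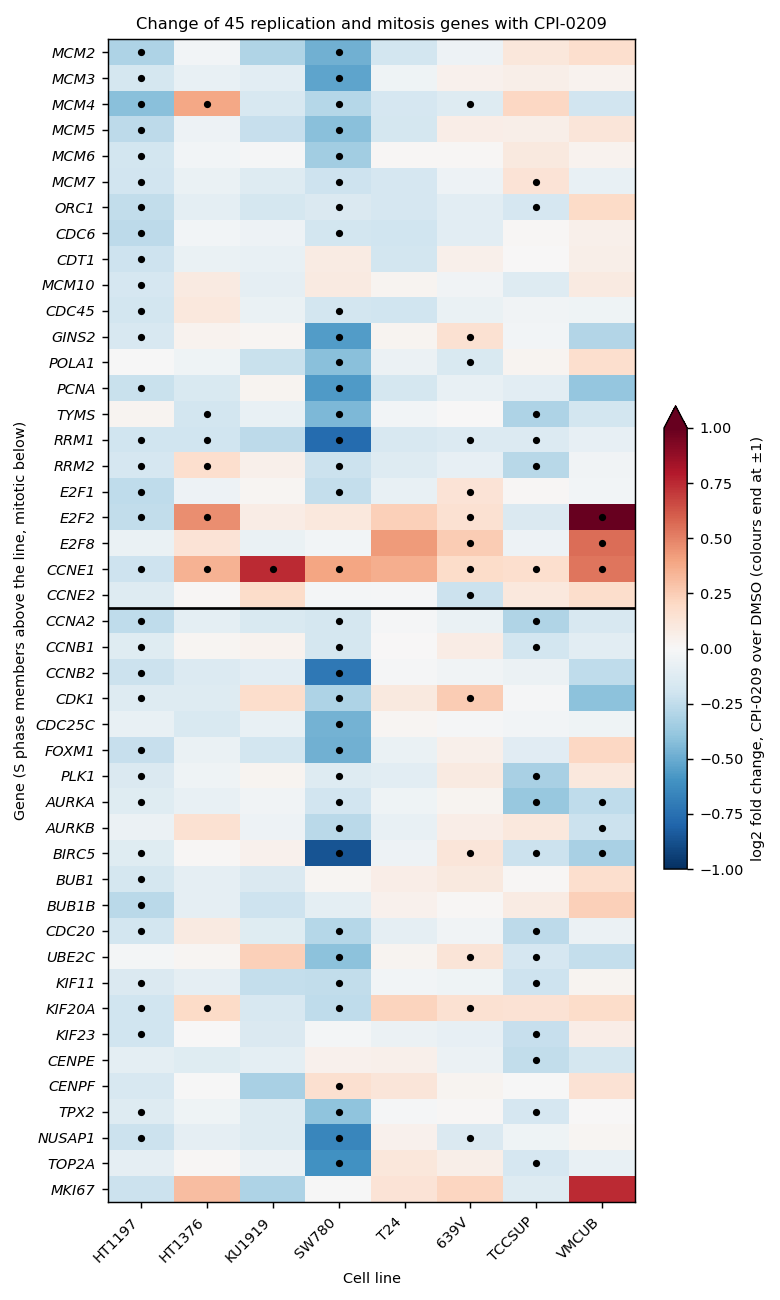
Log2 fold change of CPI-0209 over DMSO for each of the 45 members (rows, S phase above the line) in each of the 8 lines (columns), with blue for lower, red for higher and a dot where edgeR's adjusted p was under 0.05. The columns of HT1197 and SW780 are mostly blue with dots, and the CCNE1 row is red in 7 of 8 lines.

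The 6 subunits of the MCM2 to MCM7 helicase, which unwinds DNA at the fork, were called lower together in HT1197 and SW780. With library totals MCM4 and MCM7 were no longer called in SW780, and the other 4 were. MCM2 stood at 131, 136 and 147 CPM in the DMSO libraries of HT1197 and at 115, 109 and 105 CPM with CPI-0209. Every treated library lay below every DMSO library, and MCM2 fell by 0.31 ± 0.04 (adjusted p = 8.97e-05). In SW780 it went from 255, 243 and 254 to 177, 176 and 195 CPM, again without overlap, and fell by 0.48 ± 0.05 (adjusted p = 4.45e-08). MCM4 fell most of the 6 in HT1197, from 349.8, 367 and 385 to 268, 282 and 265 CPM, by 0.42 ± 0.04 (adjusted p = 9.04e-07), while MCM3 fell most in SW780, from 201, 200.5 and 197 to 135, 141 and 148 CPM, by 0.52 ± 0.04 (adjusted p = 4.56e-09). The 6 medians were -0.23 in HT1197 and -0.38 in SW780.

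MCM4 parted from its 5 partners in HT1376. Its DMSO libraries held 247, 195 and 189 CPM and its treated libraries 272, 263 and 276 CPM, all above. It rose by 0.39 ± 0.09 (adjusted p = 0.00996), while the other 5 subunits lay between -0.08 and -0.02 and were not called. The rise of MCM4 was lost without DMSO replicate 2 (adjusted p = 0.0668) and kept without DMSO replicate 1, the library of low transcript balance. TCCSUP is the line in which all 6 subunits lay above 0, with a median of 0.10. Of these only MCM7 was called, from 399, 416 and 444 to 453, 445 and 452 CPM, higher by 0.14 ± 0.05 (adjusted p = 0.0442), a call that ended without any of 5 of the 6 libraries (adjusted p up to 0.136). In 639V MCM4 fell by 0.13 ± 0.05 (adjusted p = 0.0419), and that call ended without DMSO replicate 1 or 3 or CPI-0209 replicate 1 or 3 (adjusted p up to 0.167). MCM2 in KU1919 went from 323, 337 and 345 to 254, 268 and 296 CPM with no overlap, a change of -0.30 ± 0.10 (adjusted p = 0.1) that was called without CPI-0209 replicate 1 (-0.22, adjusted p = 0.00432).

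ORC1, CDC6, CDT1 and MCM10 license origins or help to fire them, and CDC45 and GINS2 join the MCM ring to make the active helicase. All 6 were called lower in HT1197, between -0.26 and -0.16. CDC6, the loader of the MCM ring, went there from 42.4, 41.4 and 42.7 to 34.5, 33.4 and 36.3 CPM, a fall of 0.26 ± 0.04 (adjusted p = 0.000531). In SW780 4 of the 6 were called lower, CDT1 at 0.08 and MCM10 at 0.09 being the exceptions. With library totals only GINS2 of the 4 was still called, and ORC1 and CDC45 were also lost with the length trend removed. GINS2 had the largest change there, from 38.9, 38.9 and 37.4 to 27.1, 26.96 and 25.5 CPM, a fall of 0.56 ± 0.05 (adjusted p = 1.62e-08). In 639V the same gene went the other way, from 33.4, 35.5 and 32.9 to 36.7, 39.6 and 37.2 CPM, and rose by 0.15 ± 0.05 (adjusted p = 0.0255). ORC1, a subunit of the origin recognition complex, fell by 0.17 ± 0.06 in TCCSUP (adjusted p = 0.0284). The fall of GINS2 in HT1197 and its rise in 639V, and that of ORC1 in TCCSUP, ended without some single libraries: 5 of 6 for GINS2 in HT1197 (adjusted p up to 0.124), 4 of 6 in 639V (up to 0.11) and 3 of 6 for ORC1 (up to 0.1).

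PCNA, the clamp that holds polymerases on DNA (ENSG00000132646, chromosome 20, 5114953 to 5126626), fell by 0.22 ± 0.03 in HT1197 and by 0.57 ± 0.04 in SW780 (adjusted p = 0.000253 and 1.5e-09). Its SW780 libraries went from 324, 326 and 351 CPM to 229.9, 227 and 232 CPM. VMCUB showed a wide spread in DMSO, at 493, 615 and 417 CPM, against 368, 380.3 and 376 CPM with CPI-0209. All treated libraries were lower, and the change of -0.38 ± 0.13 was not called (adjusted p = 0.0629). It passed without DMSO replicate 2, at -0.24 (adjusted p = 0.0231), and without DMSO replicate 3, at -0.56 (adjusted p = 0.00485). POLA1, the catalytic subunit of DNA polymerase alpha, fell in SW780 by 0.42 ± 0.05 (adjusted p = 5.81e-07) and in 639V by 0.16 ± 0.05 (adjusted p = 0.0341, ending without any of 3 libraries). It stood at -0.00429 in HT1197, where PCNA fell.

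RRM1 was the member called lower in the most lines, 5 of 8. It encodes the large subunit of ribonucleotide reductase, which makes deoxynucleotides (ENSG00000167325, chromosome 11, 4094707 to 4138876), and fell in HT1197, HT1376, SW780, 639V and TCCSUP. SW780 held 136, 143 and 142 CPM in DMSO and 82.1, 86.1 and 83.1 CPM with CPI-0209. That was the largest fall of RRM1, 0.77 ± 0.04 (adjusted p = 1.22e-11). HT1376 went from 198, 198 and 199 to 165, 175 and 170.1 CPM (-0.20 ± 0.05, adjusted p = 0.00796) and HT1197 from 80.2, 84.8 and 81.3 to 72.3, 70.3 and 68.9 CPM (-0.20 ± 0.04, adjusted p = 0.00089). The changes in 639V and TCCSUP were smaller, -0.14 ± 0.04 and -0.14 ± 0.05. The first of these calls ended without DMSO replicate 3 (adjusted p = 0.0886), the second without any library but DMSO replicate 2 (adjusted p up to 0.105). Both also ended with library totals, which leaves 3 lines, and the one in TCCSUP with the length trend removed. In the lines without a call RRM1 lay at -0.26 in KU1919, -0.16 in T24 and -0.08 in VMCUB, so that it was below 0 in all 8. Outside the members, the housekeeping genes HPRT1, RPLP0, TFRC and PGK1 were also called lower in 5 lines, as were SLBP, CENPN and CDC25A. Of these, TFRC, PGK1, SLBP, CENPN and CDC25A were below 0 in all 8 as well. The share of all genes called lower in 5 lines was not counted.

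The other genes of deoxynucleotide supply did not keep step with RRM1. RRM2, the small subunit whose level rises in S phase, fell in HT1197, SW780 and TCCSUP but rose in HT1376. There it went from 95.3, 96.4 and 98.6 to 111, 107 and 102 CPM, 0.17 ± 0.05 (adjusted p = 0.0277), a call that ended without any of 4 libraries (adjusted p up to 0.138). In TCCSUP RRM2 went from 189, 189 and 178 to 152, 147 and 149 CPM and fell by 0.28 ± 0.05 (adjusted p = 0.000465). TYMS, thymidylate synthase, went in the same line from 109, 110.1 and 111 to 88.7, 86.1 and 86 CPM and fell by 0.31 ± 0.05 (adjusted p = 0.000112). These 2 were the called S phase members of smallest p in TCCSUP, where the helicase genes lay above 0. TYMS also fell in SW780 by 0.45 ± 0.04 (adjusted p = 1.87e-08) and in HT1376 by 0.18 ± 0.06 (adjusted p = 0.0457, up to 0.179 leaving out 1 library), and was at 0.02 in HT1197.

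CCNE1 moved against most members. It was called higher in 6 lines and lower in HT1197, the line where CCNE1 started highest. The share of all genes called higher in 6 lines was not counted. KU1919, where CCNE1 started lowest, went from 9.26, 8.44 and 8.45 CPM to 15.5, 14.7 and 13.9 CPM. That was its largest rise, 0.75 ± 0.08 (adjusted p = 0.00162), and it was the only member called in KU1919. VMCUB went from 14, 13.97 and 12.9 to 18.8, 19.8 and 18.6 CPM and rose by 0.54 ± 0.07 (adjusted p = 0.00185). SW780, in which most members fell, held 34.4, 33.9 and 34.5 CPM in DMSO and 47.4, 44.7 and 45.2 CPM with CPI-0209, a rise of 0.39 ± 0.05 (adjusted p = 8.12e-07). HT1376 went from 14.1, 13.3 and 13.1 to 15.9, 18.2 and 16.7 CPM (0.35 ± 0.07, adjusted p = 0.00395) and 639V from 27.9, 26.5 and 26.4 to 29.8, 31.5 and 30.95 CPM (0.19 ± 0.05, adjusted p = 0.00832). In none of these 5 lines did the groups overlap, and each call was kept without each of the 6 libraries in turn.

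The sixth rise of CCNE1 was less firm. In TCCSUP the groups overlapped, at 20.2, 21.6 and 23.1 CPM against 24.7, 22.9 and 23.5 CPM, and the rise of 0.17 ± 0.06 (adjusted p = 0.0387) was lost without any library but DMSO replicate 3 (adjusted p up to 0.164). T24 went from 14.5, 15.6 and 13.8 to 16.2, 18.5 and 21.6 CPM, with every treated library above every DMSO library, and its change of 0.37 ± 0.11 was not called (adjusted p = 0.0834). HT1197 went from 112, 108 and 119 to 97.3, 95.4 and 97.5 CPM and fell by 0.21 ± 0.04 (adjusted p = 0.000861). After treatment HT1197 still held the highest CCNE1 of the 8 lines, at 96.7 ± 1.15 CPM (SD, n = 3). CCNE2, which encodes cyclin E2 and acts with the same kinase, did not follow CCNE1. It was called in 639V alone, lower, with a fall of 0.22 ± 0.07 (adjusted p = 0.0274), lost without DMSO replicate 2 or 3 or CPI-0209 replicate 2 (adjusted p up to 0.0974), and stood between -0.13 and 0.18 in the other 7 lines.

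E2F2 gave the largest change of any member. VMCUB, the line with the least E2F2 in DMSO, went from 7.97, 9.10 and 8.23 CPM to 20.3, 21.05 and 22.8 CPM. The treated libraries stood far above the DMSO libraries, and E2F2 rose by 1.40 ± 0.08 (adjusted p = 0.000106), a 2.63-fold rise that was kept without each library in turn. It also rose in HT1376, from 18.1, 19.8 and 20.2 to 26.4, 25.7 and 26.2 CPM (0.46 ± 0.06, adjusted p = 0.000286), and in 639V, from 17.9, 17.4 and 18.1 to 20.4, 19.7 and 19.5 CPM (0.15 ± 0.05, adjusted p = 0.0327, up to 0.132 leaving out 1 library). HT1197, highest at the start, went from 43.1, 43.4 and 47.3 to 38.9, 37.8 and 34.4 CPM and fell by 0.25 ± 0.05 (adjusted p = 0.00274). E2F8, a repressive E2F factor, rose in 639V from 27.2, 25.5 and 25.9 to 31.4, 31.1 and 31.3 CPM (0.25 ± 0.05, adjusted p = 0.00101). In VMCUB it rose from 32.9, 26.7 and 37.6 to 44.4, 46.8 and 46.7 CPM (0.56 ± 0.13, adjusted p = 0.0228), and 4 of the 6 libraries could each end that call when left out (adjusted p up to 0.0876). E2F1, the best known activator, fell in HT1197 by 0.25 ± 0.05 (adjusted p = 0.00115) and in SW780 by 0.24 ± 0.04 (adjusted p = 0.000154). Its rise in 639V, 0.13 ± 0.05 (adjusted p = 0.0475), ended without any library but CPI-0209 replicate 1 (adjusted p up to 0.169), and its fall in SW780 ended with library totals as the scale (-0.04, adjusted p = 0.49).

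**Figure D2:**
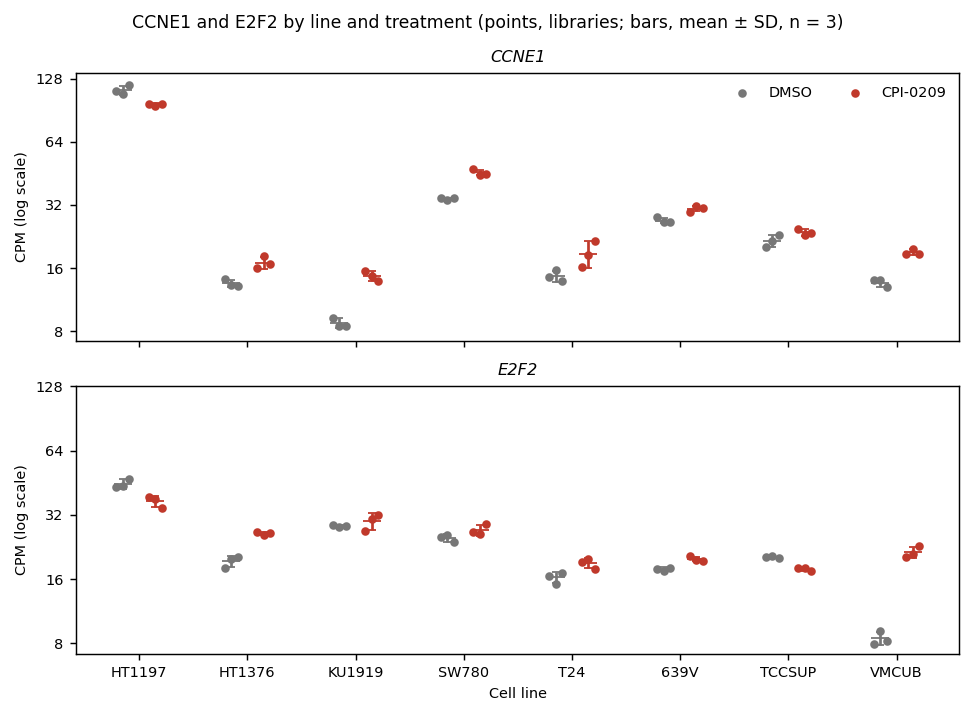
CPM of CCNE1 and E2F2 (log scale) in each library of the 8 lines, grey for DMSO and red for CPI-0209, with mean ± SD of 3 libraries. CCNE1 is higher with CPI-0209 in every line but HT1197, with overlap in TCCSUP, and E2F2 separates most in VMCUB, from 8.43 ± 0.596 to 21.4 ± 1.32 CPM.

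Among the 10 genes of mitotic entry, all 10 were called lower in SW780 (4 with library totals), 8 in HT1197 (4 with library totals) and 5 in TCCSUP (the same 5 with library totals). The 4 that HT1197 lost on that scale were CCNB1, CDK1, AURKA and BIRC5. BIRC5, which encodes survivin, a subunit of the chromosomal passenger complex (ENSG00000089685, chromosome 17, 78214186 to 78225636), had the largest fall. Its SW780 libraries held 130.2, 134 and 139.9 CPM in DMSO and 75.5, 75.4 and 75.8 CPM with CPI-0209, a fall of 0.86 ± 0.04 (adjusted p = 3.29e-12). CCNB2, cyclin B2, went there from 63.3, 63.9 and 69.9 to 39.9, 41.2 and 41.1 CPM, a fall of 0.72 ± 0.05 (adjusted p = 2.42e-10), while CCNB1, cyclin B1, fell by 0.18 ± 0.04 (adjusted p = 0.000845). The change of CCNB1 was 0.03 with library totals as the scale and -0.01 once a trend with transcript length was removed (adjusted p = 0.597 and 0.819). FOXM1 fell in SW780 from 181, 185 and 186 to 133, 135 and 135 CPM (-0.48 ± 0.04, adjusted p = 3.83e-09) and in HT1197 from 133, 141 and 135 to 111, 115 and 118 CPM (-0.23 ± 0.04, adjusted p = 0.000207). In both lines all treated libraries were below all DMSO libraries. In 639V BIRC5 rose by 0.12 ± 0.04 (adjusted p = 0.0365), a call that ended without any of 4 of the 6 libraries (up to 0.148). FOXM1 stood there at 0.05, not called, and passed with library totals (adjusted p = 0.0403). CCNA2, cyclin A2, went in HT1197 from 54.8, 52.95 and 56.7 to 46.6, 46.2 and 43.5 CPM and fell by 0.25 ± 0.04 (adjusted p = 0.00052).

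In TCCSUP 2 kinases, AURKA and PLK1, had the smallest p of the mitotic members, while the kinases CDK1, AURKB, BUB1 and BUB1B were not called. AURKA, the Aurora A kinase of the centrosome, went from 88.3, 79.3 and 82.1 to 63.2, 59.9 and 63.6 CPM and fell by 0.38 ± 0.06 (adjusted p = 8.92e-05). PLK1, Polo-like kinase 1, went from 186, 198 and 203 to 153, 150.0 and 155 CPM and fell by 0.32 ± 0.05 (adjusted p = 0.000124). Treated libraries lay below DMSO libraries for both. CCNA2 fell there by 0.30 ± 0.05 and CCNB1 by 0.18 ± 0.05, and AURKB, the Aurora B kinase, stood at 0.11 and FOXM1 at -0.11, neither called. In VMCUB the called mitotic members were AURKA (-0.25 ± 0.06, adjusted p = 0.0263), AURKB (-0.21 ± 0.06, adjusted p = 0.0449) and BIRC5 (-0.33 ± 0.10, adjusted p = 0.046). AURKA went from 239, 256 and 228 to 198, 196 and 191 CPM and AURKB from 140.0, 152 and 136 to 120.0, 117 and 119.6 CPM. All 3 calls ended with library totals, and without DMSO replicate 1 or any 1 of the treated libraries in turn (adjusted p up to 0.174), and with a length trend removed AURKB stood at 0.09 (adjusted p = 0.375).

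CDK1, the kinase that drives mitosis with the B cyclins, was called higher in 1 line and lower in 2. In 639V it rose from 84.7, 84.98 and 90.6 to 105, 103 and 102 CPM, by 0.25 ± 0.05 (adjusted p = 0.000481), and this was the mitotic member of smallest p there, though not called in 1 fit of all libraries (adjusted p = 0.264). It fell in HT1197 by 0.13 ± 0.04 (adjusted p = 0.0289) and in SW780 by 0.31 ± 0.05 (adjusted p = 3.77e-05). The fall in HT1197 ended without DMSO replicate 1 or 2 or CPI-0209 replicate 1 or 2 (adjusted p up to 0.121), and that in SW780 with library totals (-0.11, adjusted p = 0.0905). In T24 DMSO replicate 2 held 132 CPM of CDK1 and CPI-0209 replicate 3 held 138 CPM, against 79.9 to 87.6 CPM in the other 4. Those 2 libraries had the lowest balance of long to short transcripts in the line, -0.18 and -0.25, and CDK1 has a transcript of 1948 bases. The part of transcript length in this spread was not tested. CDC25C, the phosphatase that activates CDK1, was called in SW780 alone, lower with a fall of 0.47 ± 0.06 (adjusted p = 1.7e-06).

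BUB1 and BUB1B act in the spindle checkpoint, and CDC20 and UBE2C serve the anaphase promoting complex that ends it. In HT1197 BUB1, BUB1B and CDC20 fell, by 0.17 ± 0.05, 0.27 ± 0.05 and 0.18 ± 0.03. BUB1 there lost its call without DMSO replicate 1 or CPI-0209 replicate 1 or 3 (adjusted p up to 0.0709). In SW780 the pair of the anaphase promoting complex was called and the checkpoint pair was not. CDC20 went from 163, 156 and 164 to 137, 131 and 136 CPM (-0.29 ± 0.04, adjusted p = 8.95e-06) and UBE2C from 117, 115 and 123 to 92.2, 90.1 and 89.6 CPM (-0.41 ± 0.04, adjusted p = 1.15e-07), the former not called with library totals and the latter not with the length trend removed, while BUB1 was at 0.02 and BUB1B at -0.10. TCCSUP had the same pair lower, CDC20 by 0.26 ± 0.05 (adjusted p = 0.00149) and UBE2C by 0.17 ± 0.05 (adjusted p = 0.0163, lost without CPI-0209 replicate 1 or 2, up to 0.0744). CDC20 and UBE2C have the shorter transcripts, 1777 and 914 bases against 3576 and 3725 for BUB1 and BUB1B. Whether length has a part in the split was not tested within these 4 genes.

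The kinesins KIF11, KIF20A and KIF23, the kinetochore proteins CENPE and CENPF, and the spindle proteins TPX2 and NUSAP1 gave 5 calls lower in HT1197, 4 lower in SW780 and 4 lower in TCCSUP. NUSAP1, which bundles spindle microtubules, went in SW780 from 130.4, 137 and 138 to 86.3, 90.99 and 85.6 CPM, a fall of 0.65 ± 0.04 (adjusted p = 1.95e-10). TPX2, the activator of Aurora A, fell in the same line by 0.40 ± 0.04 (adjusted p = 1e-07). CENPF rose there by 0.16 ± 0.05 (adjusted p = 0.00948), the only mitotic member called higher in SW780. Its transcript is 10307 bases long, and it was not called with the length trend removed or in 1 fit of all 48 libraries. In TCCSUP the 4 called were KIF23, a kinesin of the midzone, CENPE, a kinetochore motor, KIF11, which separates the spindle poles, and TPX2. They fell by 0.23 ± 0.05, 0.25 ± 0.05, 0.21 ± 0.06 and 0.17 ± 0.05, and each call was kept without each library in turn and on both scales. KIF20A, a kinesin of cytokinesis, rose in 639V from 131, 137 and 139 to 152, 149 and 152 CPM (0.15 ± 0.04, adjusted p = 0.0108) and in HT1376 from 40.99, 45.7 and 46.4 to 51.6, 49.5 and 47.5 CPM (0.19 ± 0.06, adjusted p = 0.0435). In HT1197 and SW780 it fell, by 0.20 ± 0.04 and 0.25 ± 0.04, the latter not called with library totals. The rise in 639V ended without DMSO replicate 1 or CPI-0209 replicate 3 (adjusted p up to 0.0726), and that in HT1376 without any library but DMSO replicate 3 (adjusted p up to 0.158).

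TOP2A, the topoisomerase that untangles chromosomes, went in SW780 from 472, 517 and 510.2 to 324, 354 and 324 CPM and fell by 0.61 ± 0.05 (adjusted p = 2.52e-09). Its fall in TCCSUP, 0.17 ± 0.06 (adjusted p = 0.0243), was lost without DMSO replicate 2 or CPI-0209 replicate 1 or 2 (adjusted p up to 0.0816). MKI67 encodes Ki-67, the protein stained to count proliferating cells (ENSG00000148773, chromosome 10, 128096659 to 128126385), and was called in no line, with changes from -0.31 in KU1919 to 0.74 in VMCUB. KU1919 held 701, 756 and 782 CPM in DMSO and 308, 696 and 790.0 CPM with CPI-0209, where the first treated library stood far below the other 5. HT1376 held 216, 355 and 369.8 CPM and 437, 315 and 389 CPM, with DMSO replicate 1 the lowest. VMCUB held 596, 409 and 819 CPM and 1012, 977 and 967 CPM, with the treated libraries close together and DMSO replicate 2 the lowest.

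These low libraries are ones in which long transcripts as a whole were low. MKI67 has the longest transcript of the members, 12678 bases, and in 5 of the 8 lines the library with the least MKI67 was also the one with the lowest balance of long to short transcripts. Without KU1919 CPI-0209 replicate 1 the change of MKI67 in KU1919 was 0.02 (adjusted p = 0.837) in place of -0.31 ± 0.33 (adjusted p = 0.594). Without VMCUB DMSO replicate 2 it was 0.51 in VMCUB and passed (adjusted p = 0.0102), beside 0.74 ± 0.24 with it (adjusted p = 0.055), and it also passed without DMSO replicate 3 (0.98, adjusted p = 0.00318). In 3 other lines single libraries decided the call: it was lower in HT1197 without CPI-0209 replicate 2 (-0.29, adjusted p = 0.00108) and in TCCSUP without DMSO replicate 1 (-0.27, adjusted p = 0.0066), and higher in 639V without CPI-0209 replicate 2 (0.32, adjusted p = 0.000155). With the length trend removed, MKI67 passed as lower in HT1197 (adjusted p = 0.00704) and SW780 (adjusted p = 0.0277). It passed with that setting as higher in 639V (adjusted p = 0.00164) and VMCUB (adjusted p = 0.0315). Beyond that fit, the part of this balance in the MKI67 values was not tested.

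**Figure D3:**
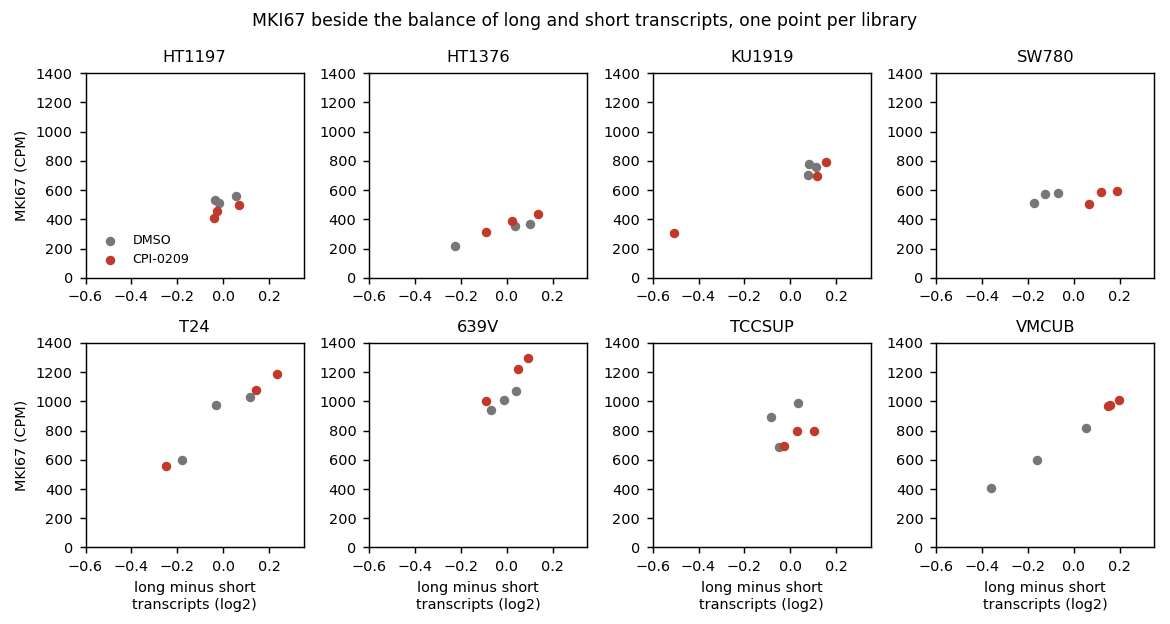
CPM of MKI67 against the log2 balance of long to short transcripts, 1 panel per line and 1 point per library, grey for DMSO and red for CPI-0209. In KU1919 the treated library at -0.51 holds 308 CPM, and the 5 others hold 696 to 790.0 CPM.

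Transcript length also moved with the changes of members in SW780, VMCUB and KU1919, in KU1919 the other way. In SW780 the 23 members with transcripts of up to 3240 bases had a median change of -0.29 and the 22 longer ones -0.16, while over all genes the shortest 25% of transcripts were at -0.11 and the longest at 0.11. In VMCUB the members' medians were -0.08 and 0.11, beside -0.16 and 0.19 for all genes. In KU1919, where CPI-0209 replicate 1 is one of the libraries of low transcript balance, the shorter members were at -0.07 and the longer at -0.14, beside 0.09 and -0.08 for all genes. The split was small in HT1197, with -0.19 and -0.17 among members and -0.000329 and 0.000813 among the shortest and longest 25% of all genes. SW780 depended on the scale too. With library totals in place of TMM the median of all its genes went from 0.02 to 0.22, the members' calls from 33 lower and 2 higher to 17 lower and 12 higher, and the medians of S phase and mitotic members to -0.02 and -0.05. Changes in SW780 are thus relative to the bulk of its genes, and of 14 housekeeping genes 13 were called lower there as well, with a median of -0.45, below the -0.25 of the 45 members. Among the SW780 calls, BIRC5, RRM1, CCNB2, NUSAP1, PCNA, GINS2, MCM3 and TOP2A were kept on both scales, with the length trend removed and without each library in turn. So were MCM2, MCM5, MCM6, POLA1, TYMS, CDC25C, FOXM1 and TPX2, all lower, and CCNE1, higher.

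**Figure D4:**
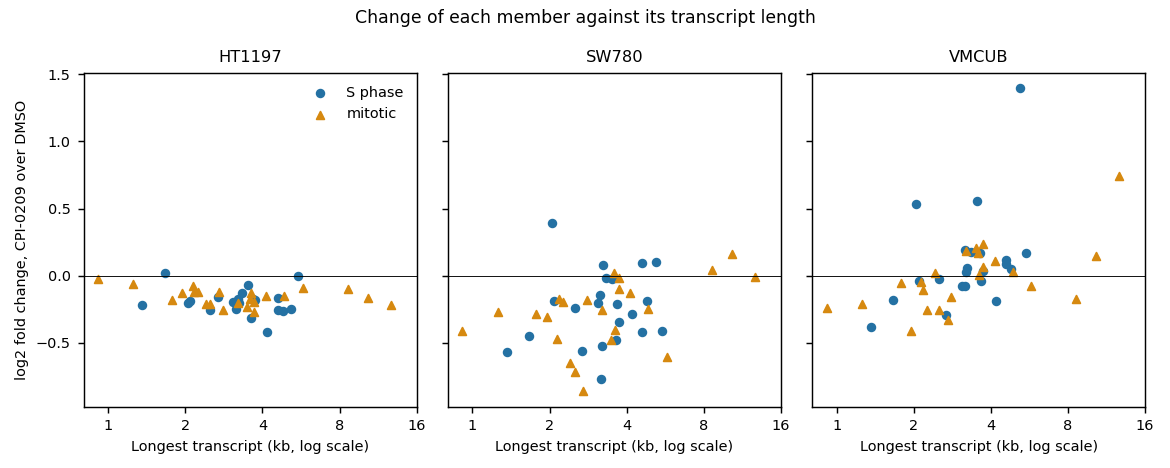
Log2 fold change of each member against the length of its longest annotated transcript (kb, log scale) in HT1197, SW780 and VMCUB, circles for S phase and triangles for mitotic members. HT1197 lies below 0 at every length but for TYMS at 0.02, and in SW780 and VMCUB the short transcripts lie lower than the long ones.

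The 34 falls in HT1197 were small and even. They ran from -0.42 to -0.12. Of the 45 members 44 lay below 0, beside 7737 of the 15579 genes tested. In 39 members the groups did not overlap, and the share of all genes without overlap was not counted. Of the 34, 28 were kept without each of the 6 libraries in turn, 28 with library totals, 34 with the length trend removed and 20 in a fit of all 48 libraries that shares 1 estimate of the spread. The 6 that a single library could end were GINS2, CCNB1, CDK1, AURKA, BUB1 and KIF11. In KU1919 the counts rested on 1 library. Without CPI-0209 replicate 1, 15 members were called lower (7 S phase, 8 mitotic) and 2 higher, E2F2 and CCNE1; those lower included MCM2, MCM5, MCM7, RRM1, CCNA2, CCNB2, FOXM1 and NUSAP1. In VMCUB, leaving out DMSO replicate 2 gave 7 lower and 7 higher, MKI67, BUB1 and BUB1B among the latter, and leaving out DMSO replicate 3 gave 13 lower and 5 higher. T24 gained 1 call without CPI-0209 replicate 3, E2F8 higher. HT1376 without DMSO replicate 1 kept MCM4, RRM2, E2F2 and CCNE1 higher and RRM1 lower, lost KIF20A and TYMS, and added AURKB higher and BUB1 and CENPE lower. The share of all genes called was not counted in the fits with a library left out. These added calls therefore cannot be read as particular to the members.

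The median change of each class was below 0 in HT1197, HT1376, KU1919 and SW780. The medians in HT1197 were -0.20 for S phase and -0.15 for mitotic members, beside 0.00 for all genes. SW780 gave -0.22 and -0.25 beside 0.02. In TCCSUP they were 0.01 and -0.17 beside -0.00308 for all genes. Taken per library as the median over the class of log2 CPM relative to the line's DMSO mean, the mitotic members of TCCSUP stood at -0.02, 0.02 and 0.01 in DMSO and -0.17, -0.26 and -0.17 with CPI-0209, with no overlap. Its S phase members stood at -0.01, -0.01 and 0.02 and 0.01, -0.06 and -0.04, with overlap. VMCUB had medians of 0.05 for S phase and -0.04 for mitotic members, HT1376 -0.03 and -0.04, and KU1919 -0.07 and -0.12. In T24 the S phase median was the lower one, -0.10 against 0.00, as in 639V, -0.04 against 0.03. The difference between the classes was not tested in any line.

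**Figure D5:**
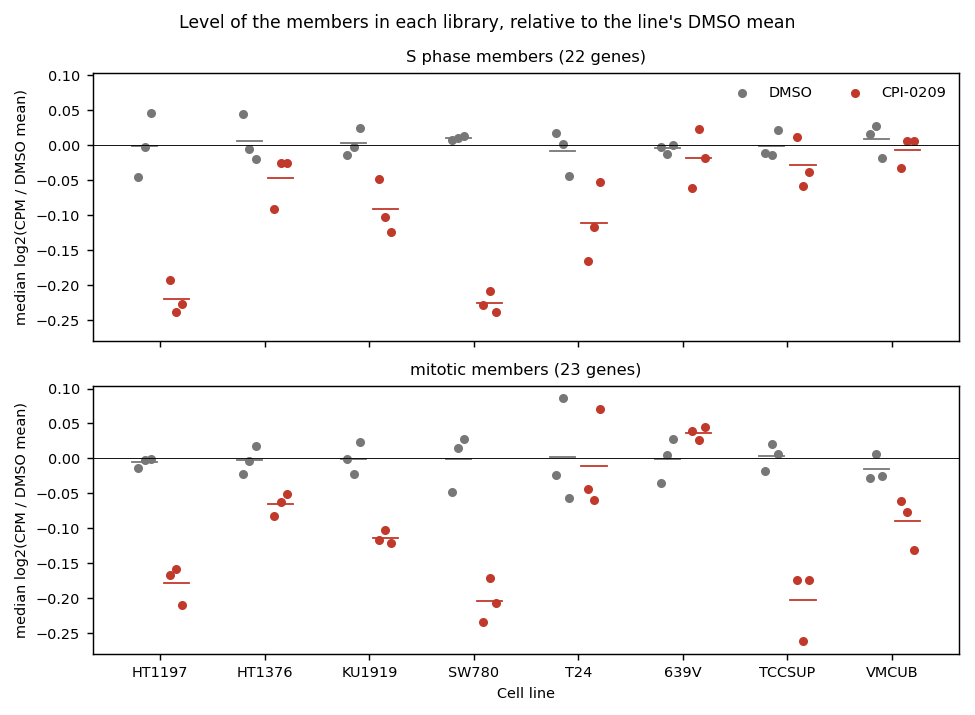
Median over the 22 S phase members (above) and the 23 mitotic members (below) of log2 CPM relative to the line's DMSO mean, 1 point per library, grey for DMSO and red for CPI-0209, with a line at the mean of 3. The treated libraries lie below the DMSO libraries in both panels in HT1197, HT1376, KU1919 and SW780, in the S phase panel alone in T24 and in the mitotic panel alone in TCCSUP and VMCUB. The nearest DMSO and treated libraries were close in HT1376 (-0.020 and -0.025 for S phase, -0.023 and -0.051 for mitotic members), T24 (-0.044 and -0.052, S phase) and VMCUB (-0.028 and -0.061, mitotic). The fits stand above this CPM scale by a median of 0.028 in HT1376, 0.013 in T24 and 0.053 in VMCUB. Separation in these lines was not checked on the scale of the fits. In 639V both panels overlap.

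A change common to the 8 lines was sought on counts summed over the 3 libraries of each group, so that each line counts once. RRM1 and CCNA2 were the 2 members called lower, and 0 were called higher, where 4.41% of 18110 genes were lower and 7.31% higher. At an unadjusted p under 0.05 there were 16 lower and 1 higher, and with DESeq2 14 lower and 1 higher, the latter CCNE1. No share of all genes was counted for either. RRM1 fell by 0.26 ± 0.07 (adjusted p = 0.0438) and CCNA2 by 0.17 ± 0.04 (adjusted p = 0.0295), and both lay below 0 in all 8 lines. PCNA stood at -0.22 ± 0.07, CCNE1 at 0.30 ± 0.09, KIF11 at -0.14 ± 0.04 and AURKA at -0.15 ± 0.05 (adjusted p = 0.0564, 0.0625, 0.0525 and 0.0732). The 45 members had a median of -0.11 and 40 lay below 0, against -0.01 for all genes. The 14 housekeeping genes had a median of -0.15, all 14 lay below 0, and 2 were called lower: TFRC, the transferrin receptor, at -0.28 ± 0.05, and HPRT1, of purine salvage, at -0.40 ± 0.10 (adjusted p = 0.0169 and 0.0348), with PGK1, of glycolysis, at -0.34 ± 0.10 (adjusted p = 0.0547). Both member calls ended with library totals as the scale, without the filter on low counts and with the length trend removed. RRM1 kept its call only without SW780 when 1 line was left out, and CCNA2 was lost without any 1 of the 8 (adjusted p up to 0.0829 and 0.0788).

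With the 4 libraries of low transcript balance left out of the sums, 7 members were called lower and 0 higher. They were PCNA, TYMS and RRM1 of S phase and CCNA2, AURKA, CDC20 and KIF11 of mitosis. The share of all genes called in that fit was not counted, so the added calls cannot be read as particular to the members. PCNA then stood at -0.24 (adjusted p = 0.0264), KIF11 at -0.14 (adjusted p = 0.0281) and AURKA at -0.16 (adjusted p = 0.0348). CCNE1 stayed uncalled in the shared fit, and it passed without HT1197 (0.38, adjusted p = 0.0293), with library totals (0.38, adjusted p = 0.0414) and with the length trend removed (0.38, adjusted p = 0.0376).

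That the lines respond differently was tested directly, with the 7 terms of line by treatment over all 48 libraries. Of the 45 members 36 differed between lines, 18 of each class, where 58.7% of 19790 genes did. E2F2 had the smallest p (adjusted p = 2.49e-16), followed by CCNE1 (4.66e-09), RRM1 (3.12e-08), MCM3 (3.8e-08) and NUSAP1 (3.63e-07), and then TPX2, TOP2A, CCNB2, MCM4 and BIRC5. For RRM1, NUSAP1, TOP2A, CCNB2 and BIRC5 the difference rested on SW780. Without SW780 none of the 5 passed (adjusted p = 0.494, 0.123, 0.106, 0.178 and 0.0797). E2F2, CCNE1, MCM3, TPX2 and MCM4 differed without any 1 line. Without SW780 21 members differed in all. MKI67, with changes from -0.31 to 0.74, did not pass this test (adjusted p = 0.193), but passed with the length trend removed (adjusted p = 0.0427). Without the 4 libraries of low transcript balance 40 members differed. The share of all genes was not counted in these refits.

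Other genes of the same machinery were counted beside the members. A list of 42 further replication genes (polymerases, replication factors, histone supply) had 17 called lower in HT1197, 17 in HT1376, 27 in SW780, 16 in 639V, 12 in TCCSUP and 4 in VMCUB. A list of 45 further mitotic genes had 21, 5, 28, 5, 25 and 4 in the same lines. The 5 of 45 in HT1376 and in 639V, and both counts in VMCUB, were below the share of all genes called lower in those lines. Called higher were 4 of the replication list in TCCSUP, 3 of the mitotic list in each of HT1376, SW780 and 639V and 1 in VMCUB. Of either list edgeR called 0 in KU1919 and T24, with medians of -0.12 and -0.09 in KU1919 and -0.11 and -0.02 in T24. In the shared response 8 of the 42 and 4 of the 45 were called lower and 0 higher, with medians of -0.14 and -0.12. SLBP, which binds histone mRNA, fell by 0.21 ± 0.04 (adjusted p = 0.0236), RFC2, a clamp loader subunit, by 0.19 ± 0.04 and RPA2, of the single-strand binding protein RPA, by 0.16 ± 0.04. Of the mitotic list CENPN, a centromere protein, fell by 0.26 ± 0.04 (adjusted p = 0.0157), ECT2, a regulator of cytokinesis, by 0.19 ± 0.04 and SPC24, a kinetochore protein, by 0.21 ± 0.05.

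Among regulators of the cycle, CDC25A, the phosphatase that activates CDK2 at S phase entry, fell in the shared response by 0.21 ± 0.04 (adjusted p = 0.0229) and CDK2 itself by 0.18 ± 0.05 (adjusted p = 0.0441). MYBL2, which encodes B-MYB, fell in SW780 by 0.63 ± 0.04 and in HT1197 by 0.26 ± 0.04, and rose in 639V by 0.16 ± 0.04. E2F3 was called in no line, and E2F7 was called higher in TCCSUP alone. RB1, which encodes the RB protein, was called in no line. The lines differed in it from the start, with a DMSO mean of 6.69 ± 1.32 CPM in HT1376, 16.3 ± 0.646 in 639V and 21.1 ± 0.702 in TCCSUP against 34.5 ± 0.713 in HT1197 (SD, n = 3). The DMSO libraries of KU1919, SW780 and VMCUB held more RB1, from 59.6 to 81.0 CPM. Those of T24 held the most, 98.4, 116 and 106 CPM. Of the CDK inhibitors, CDKN1C (p57) was called higher in all 8 lines, least in HT1197 at 0.98 ± 0.16, and CDKN1A (p21) in 7 lines, HT1197 at 0.06 ± 0.03 being the exception. CDKN1B (p27) was called lower in 5 lines and higher in SW780. CCND2, cyclin D2, passed the test as higher in all 6 lines with enough counts, least in 639V at 1.93 ± 0.05. Its DMSO libraries held 0.273 CPM or less in HT1197, KU1919, SW780 and T24, against 40.6 to 43.2 CPM in 639V. The treated libraries of HT1197, KU1919 and SW780 held 3.62 CPM of CCND2 or less.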

How the data were processed

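RNA was sequenced from 48 libraries of 8 cell lines as paired-end reads. Per the submitters' processing notes, STAR 2.7.3a, RSEM 1.3.1 and the hg38 build were used. The values deposited are counts per gene, all whole numbers. How RSEM's estimates became whole counts, the annotation, and the use of strand in counting are not given in the sources used here. Reads of overlapping or antisense genes may therefore be shared. Each line was tested with edgeR 4.0.16 (TMM, expression filter, robust quasi-likelihood, Benjamini-Hochberg adjustment, 4 residual degrees of freedom). The shared response was fitted on 16 sums over replicates, with line and treatment as terms, and the difference between lines with 7 interaction terms on 48 libraries. The fits were tested on simulated data with 200 changed genes. The SE is the log2 fold change divided by the root of F. CPM are TMM-scaled over all libraries. Coordinates and longest transcripts come from GENCODE 29 (GRCh38) and promoters from RefSeq. The members and all gene lists were chosen with earlier results of these data known. By rule, 9 members were always named (MKI67, PCNA, MCM2, E2F1, CCNE1, CCNE2, FOXM1, CCNB1 and CDK1), with the 2 of smallest p per class and line whose groups did not overlap, the 3 per class of smallest p in the shared response, the 10 of smallest p between lines, and of the other lists the 3 of smallest p or called in at least 6 lines, beside some regulators. Further members described within their role were chosen after their values were seen. Alternatives were DESeq2 1.42.0, other scalings, no filter, the replicate number as a block, 1 fit of all libraries and leaving out libraries or lines; removing a length trend (lowess, span 0.3) and leaving out 4 libraries were chosen after seeing the data.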

Additional observations from a re-analysis of the deposited data

Results flagged for a closer look

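The response to CPI-0209 differed between the 8 lines for 15 of the named members, by edgeR's test of the 7 line by treatment terms over 48 libraries, and these are listed because that test passed. The adjusted p-values were E2F2 (2.49e-16), CCNE1 (4.66e-09), RRM1 (3.12e-08), MCM3 (3.8e-08), NUSAP1 (3.63e-07), TPX2 (4.55e-06), TOP2A (5.66e-06), CCNB2 (8.82e-06), MCM4 (1.24e-05), BIRC5 (1.44e-05), PCNA (0.0314), MCM2 (0.000201), E2F1 (0.00462), FOXM1 (4.21e-05) and CDK1 (0.0492). The difference for CDK1 ended in 10 of 15 alternatives (adjusted p up to 0.146, without 639V). For PCNA it ended in 4 of 15, with library totals (0.113), with the replicate number as a block (0.0939), without KU1919 (0.0536) and without SW780 (0.265). For E2F1 it ended without 639V (0.0516), and for RRM1, NUSAP1, TOP2A, CCNB2 and BIRC5 without SW780. E2F2 stood apart because its rise in VMCUB, 1.40 on the log2 scale, was farther from the other 7 lines than a test for a single extreme value allows. In the same way SW780 had the lowest value, well apart from the other 7 lines, for 7 members, with log2 fold changes of RRM1 (-0.77), BIRC5 (-0.86), NUSAP1 (-0.65), MCM3 (-0.52), TPX2 (-0.40), TOP2A (-0.61) and CCNB2 (-0.72). Chance alone sets apart about 1 in 20 such groups of 8 values when genes are not picked by those values. All the members set apart here were among the 10 of smallest p between lines, picked by changes in the same 8 lines. The rate of 1 in 20 therefore does not hold for them, and the 7 values of SW780 come from the same 6 libraries.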

How the results depend on the processing

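In the 8 lines the numbers of DMSO and CPI-0209 libraries share only a number: in no line did every pair of the same number deviate together by a correlation over 0.1, and the block is given for its effect on counts of calls alone. Among the log2 fold changes of single named members, 74 of 1326 values under an alternative changed sign, 70 of them called in neither setting and 4 called in one. In SW780 with library totals MKI67 was at 0.193 (adjusted p = 0.0299), CCNE2 at 0.183 (adjusted p = 0.0124) and CCNB1 at 0.0251 (adjusted p = 0.597), and in VMCUB with the length trend removed AURKB was at 0.0879 (adjusted p = 0.375). With the test between lines included, 1411 other values kept their side of the threshold, 73 passed it newly and 108 no longer passed. The cause of these changes was not tested. With library totals as the scale, the members called lower numbered 1 in HT1376, 17 in SW780, 0 in 639V, 0 in VMCUB and 0 in the shared response, and the members called higher numbered 12 in SW780, 1 in T24, 14 in 639V, 7 in VMCUB and 1 in the shared response. The S phase median was -0.0119 in KU1919, -0.0236 in SW780, -0.0376 in T24, 0.0108 in 639V and 0.136 in VMCUB, and the mitotic median was -0.122 in HT1197, -0.0671 in KU1919, -0.0508 in SW780, 0.081 in 639V and 0.0466 in VMCUB with that setting. With RLE size factors, the members called lower numbered 5 in VMCUB. The S phase median was 0.0045 in VMCUB, and the mitotic median was -0.0883 in VMCUB with that setting. With no filter on low counts, the members called lower numbered 0 in VMCUB and 0 in the shared response, and the members called higher numbered 3 in HT1376 and 1 in TCCSUP. The mitotic median was -0.0733 in HT1376 with that setting. With DESeq2, the members called lower numbered 3 in KU1919, 2 in T24, 9 in VMCUB and 14 in the shared response, and the members called higher numbered 1 in TCCSUP and 1 in the shared response. The S phase median was -0.24 in SW780 and 0.0036 in VMCUB, and the mitotic median was -0.0656 in HT1376, -0.141 in KU1919 and -0.0878 in VMCUB with that setting. With 1 fit of all libraries, the members called lower numbered 20 in HT1197, 1 in HT1376, 11 in KU1919, 5 in T24, 0 in 639V and 13 in VMCUB, and the members called higher numbered 1 in SW780, 4 in T24, 2 in 639V, 0 in TCCSUP and 5 in VMCUB. The S phase median was -0.199 in SW780, -0.0305 in TCCSUP and -0.0054 in VMCUB, and the mitotic median was -0.0709 in HT1376 and -0.098 in VMCUB with that setting. With the replicate number as a block, the members called lower numbered 0 in HT1376 and 0 in VMCUB, and the members called higher numbered 3 in HT1376 and 4 in TCCSUP. With the length trend removed, the members called lower numbered 1 in HT1376, 3 in KU1919, 1 in VMCUB and 0 in the shared response, and the members called higher numbered 9 in HT1376, 2 in T24, 14 in 639V, 8 in TCCSUP, 5 in VMCUB and 1 in the shared response. The S phase median was 0.0121 in HT1376, -0.183 in SW780 and 0.0448 in TCCSUP, and the mitotic median was -0.0004 in HT1376, -0.106 in SW780, 0.0524 in 639V, -0.106 in TCCSUP and 0.0463 in VMCUB with that setting. With the 4 libraries of low transcript balance left out, the members called lower numbered 7 in the shared response. Leaving out 1 library in turn (or 1 line in the shared response), the members called lower ranged from 1 to 3 in HT1376, 0 to 15 in KU1919, 0 to 4 in 639V, 0 to 13 in VMCUB and 0 to 1 in the shared response. The members called higher ranged from 2 to 5 in HT1376, 1 to 2 in KU1919, 0 to 1 in T24, 3 to 9 in 639V, 0 to 3 in TCCSUP, 2 to 7 in VMCUB and 0 to 1 in the shared response. The S phase median ranged from -0.0992 to -0.034 in KU1919, -0.25 to -0.221 in SW780, -0.0487 to 0.0045 in 639V and -0.002 to 0.0606 in VMCUB. The mitotic median ranged from -0.0774 to -0.0454 in HT1376, -0.162 to -0.0862 in KU1919, 0.0059 to 0.0536 in 639V and -0.113 to -0.0137 in VMCUB. The members that differed between lines ranged from 21 to 38, with 36 over all 8 lines and 29 with the replicate number as a block. Shares of all genes called were counted for the main fits alone, so the counts under alternatives have none beside them. Every member passed the filter on low counts in every line, and depth left none untested.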
